A study of Mus musculus with 6 samples.

Results

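Of the 12894 genes in the deposited table, 9 encode parts of the anchoring complex that holds the epidermis to its basement membrane: the laminin-332 chains Lama3 and Lamb3, the integrin subunits Itga3, Itga6, Itgb1 and Itgb4, the transmembrane collagen Col17a1, and the plakins Dst and Plec. They were taken by name, and all 9 were measured in all 6 libraries. Bulk RNA sequencing was done on epidermis separated from dermis of C57BL/6 mice at postnatal day 0. The 3 libraries labelled knockout (animals C217, C242 and C251) came from mice in which Hnrnpu, a nuclear RNA-binding protein gene, was deleted with a loxP-Cre system. The 3 controls were animal C216, whose genotype label is wild type, and animals C241 and C250, whose genotype label reads Heterogenous. Neither the driver of the Cre nor the deleted part of the gene is given in the sources used here. Each library is read as 1 animal from the number in its title.

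Basal keratinocytes stand on laminin-332, a heterotrimer that holds the chains encoded by Lama3 and Lamb3. Integrin α6β4 (Itga6 and Itgb4) binds this laminin in the hemidesmosome, where collagen XVII (Col17a1), BP230 (Dst) and plectin (Plec) tie the receptor to the keratin filaments. Integrin α3β1 (Itga3 and Itgb1) binds the same laminin in focal adhesions, which connect to actin. Inherited loss of these proteins causes forms of epidermolysis bullosa, a family of skin blistering diseases.

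Values are normalized counts, read counts that the authors divided by a factor for each library. Estimated depth was 6460000 to 9120000 assigned reads per library. Hnrnpu itself did not differ between the groups (log2 change −0.01 ± 0.20, SE, n = 3 and 3, limma adjusted p = 0.976), so the count of the whole gene does not check the genotype and every direction below rests on the labels. Xist was at 5656 and 4758 normalized counts in labelled knockouts C242 and C251 and at 3.27 or less in the other 4 libraries. Any difference of sex that Xist marks thus lies between the groups, and within the comparisons of C242 and C251 with their controls. It cannot be told apart from the label in C242 and C251, and its part was not tested. All 10 keratinocyte markers looked for were measured, among them Krt10 at 159412 to 291291 normalized counts. Across all 12872 genes tested, 33.6% passed the threshold of the comparison (limma, Benjamini-Hochberg adjusted p under 0.05), 17.7% in the higher direction for the libraries labelled knockout and 15.9% in the lower, with a median log2 change of −0.02.

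Compared as 2 groups, none of the 9 anchoring genes passed the threshold (limma adjusted p from 0.22 to 0.997, and 0 at an unadjusted p under 0.05), and in 0 of 9 did the groups fail to overlap, against 50.8% of all genes (25.8% higher and 25.0% lower). Within each group most of them varied widely between animals. Some animals with adjacent numbers varied together: C216 and C217 were high, and C250 and C251 low. C241 and C242 did not, since C241 was above its group mean for 7 of the 9 genes and C242 for 1. Within the adjacent pairs (C216 with C217, C241 with C242, C250 with C251) Itga3, Itgb1 and Itgb4 rose, and Itga6 and Col17a1 fell (limma with the pair as a block). Lama3, Lamb3, Dst and Plec did not pass by either fit. These 5 calls among 9 genes stand against 44.9% of all genes called by the same fit, 22.9% higher and 22.0% lower, so the number of calls is near the background. The same 5 genes went 1 way in all 3 pairs, which 71.2% of all genes did (34.6% higher and 36.6% lower). The pairing was read from the animal numbers and from the data, since no label names a litter.

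**Figure D1:**
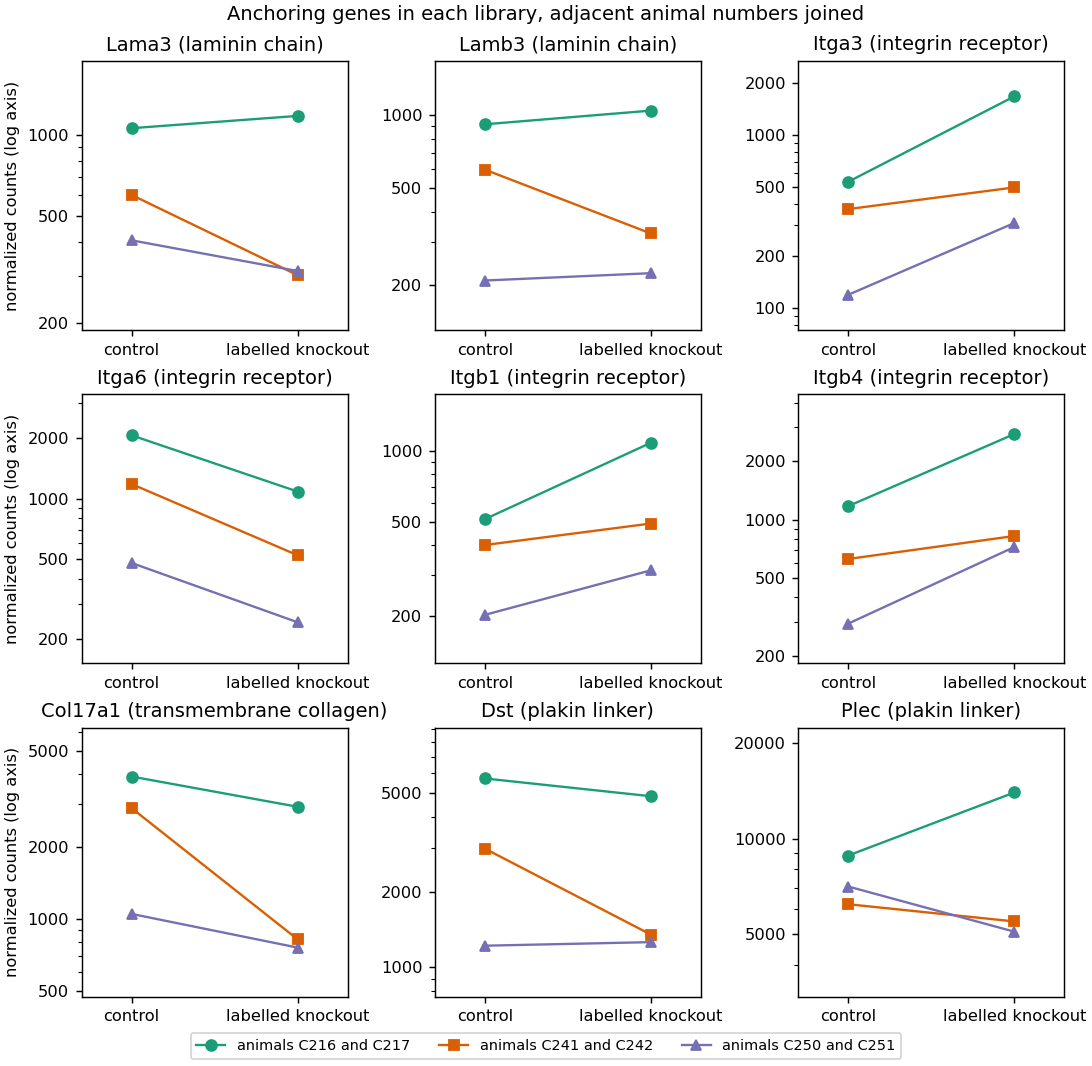
Normalized counts (log axis) of the 9 anchoring genes in the 3 controls and the 3 libraries labelled knockout, with lines joining adjacent animal numbers. The lines of Itga6 and Col17a1 all go down, those of Itga3, Itgb1 and Itgb4 all go up, and the pair C216 and C217 lies highest in each panel.

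The controls differed widely from each other in 8 of the 9 genes. Among the 2970 genes whose mean was at least that of the lowest anchoring gene (501 normalized counts), the median SD of the log2 value over the 3 controls was 0.177. It was 1.13 for Itga3, 1.12 for Dst, 1.10 for Lamb3, 1.06 for Itga6, 1.0 for Itgb4 and 0.997 for Col17a1, and 0.696 and 0.693 for Lama3 and Itgb1. At most 2.76% of those genes had as large an SD as any of these 8. Plec was the exception with an SD of 0.258, which 28.1% of the genes reached. Among the libraries labelled knockout the SD of the 9 genes was 0.811 to 1.25, against a median of 0.283. The difference within pairs was steadier for Itga6, with an SD of 0.131 over the 3 pairs, a value that 81.6% of the genes reached or exceeded. For the other anchoring genes this SD was 0.386 (Itgb1) to 0.794 (Col17a1), all above the median of 0.246. Of the genes, 24.9% and 4.78% had an SD as large as these 2.

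**Figure D2:**
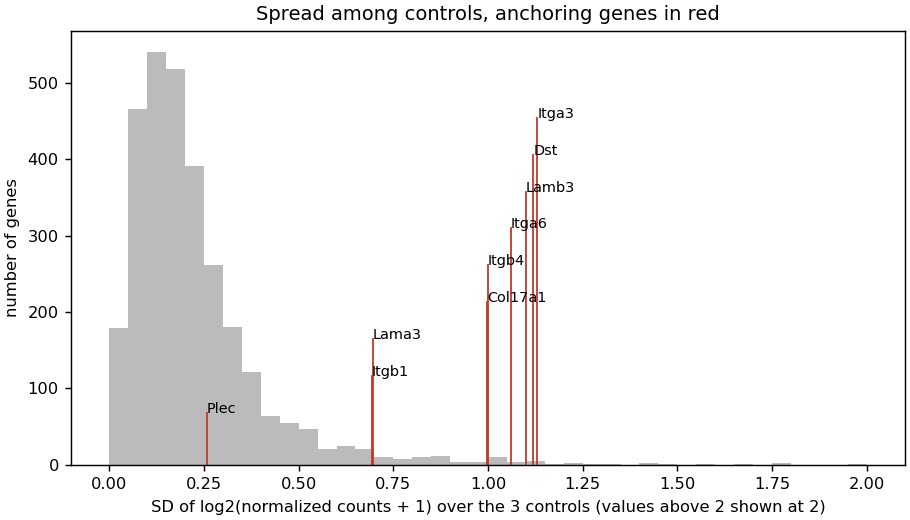
Number of genes by the SD of log2(normalized counts + 1) over the 3 controls, for the 2970 genes of at least the mean level of the lowest anchoring gene. Red lines mark the 9 anchoring genes, of which 8 lie at 0.693 or above and Plec at 0.258.

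Measured against the mean of its group on the log2 scale, control C216 was above it for 9 of the 9 genes (median 0.90). Control C241 was above it for 7 (median 0.17) and control C250 for 0 (median −1.12). Labelled knockout C217 was above the mean for 9 (median 1.26), C242 for 1 (median −0.41) and C251 for 0 (median −0.70). The median of all genes lay between −0.01 and 0.02 in every library. Krt5, a basal keratin, took the same order among controls, with 20825, 13693 and 7878 normalized counts in controls C216, C241 and C250. So did the basal keratins Krt14 (10309, 5712 and 3208) and Krt15 (4009, 3406 and 1833). Trp63, another keratinocyte marker, did not (2616, 3762 and 1700). The order was not particular to the anchoring genes. It also held for the basement membrane genes Col7a1 (1057, 552 and 330), Lama5 (1225, 750 and 348), Hspg2 (1788, 854 and 539) and Agrn (1645, 1084 and 660). Dag1, of the same list, did not take it (2441, 2618 and 2298). Summed dermal fibroblast markers followed the order of Krt5 (554, 421 and 198), with Dcn the largest part (366, 160 and 87.5). Single markers did not all do so. Col1a1 (1.51, 31 and 14.7), Col1a2 (20.4, 24.8 and 25.3) and Col3a1 (3.02, 29.2 and 8.99) were lowest in C216. In bulk samples fewer basal cells and less RNA per cell cannot be told apart, and the part of either in this spread was not tested.

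Of the laminin chains, Lama3 encodes the α3 chain that the integrins bind. It had 1062, 599 and 406 normalized counts in controls C216, C241 and C250, and 1180, 301 and 312 in labelled knockouts C217, C242 and C251. The groups overlapped, with labelled knockout C217 the highest of all and C242 and C251 the lowest. The log2 change was −0.41 ± 0.54 (SE, n = 3 and 3), or 0.754-fold, and its 95% interval ran from 0.319 to 1.78 (limma adjusted p = 0.584), and the block fit narrowed the interval to 0.525 to 1.08 (adjusted p = 0.173).

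Lamb3 encodes the β3 chain of the same heterotrimer. It had 916, 596 and 208 normalized counts in controls C216, C241 and C250 and 1043, 325 and 223 in labelled knockouts C217, C242 and C251. Each pair but C241 and C242 was nearly level, and the groups overlapped throughout. The change was 0.872-fold, with a 95% interval of 0.313 to 2.44 by groups and of 0.602 to 1.26 within pairs (limma adjusted p = 0.833 and 0.508). Its sign turned when animal C216 was left out (log2 change 0.26), and likewise without labelled knockout C251 (0.26).

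Integrin α6, encoded by Itga6, is the partner of β4 in the hemidesmosome. Its level was 2067, 1182 and 478 normalized counts in controls C216, C241 and C250 and 1084, 522 and 241.6 in labelled knockouts C217, C242 and C251. In each pair the labelled knockout was the lower, although labelled knockout C217 still exceeded control C250, so the groups overlapped. Within pairs Itga6 fell by 1.03 ± 0.14 on the log2 scale, to 0.525, 0.442 and 0.507 of the control in the 3 pairs, with a 95% interval of 0.388 to 0.619 (limma with block, adjusted p = 0.00148). The comparison by groups had the same size of change with an SE of 0.62 (adjusted p = 0.222). The block call held without each pair in turn (adjusted p = 5.87e-05 to 0.0199) and with library totals set equal or quantile normalization (adjusted p = 6.21e-04 and 9.67e-04).

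Integrin β4, encoded by Itgb4, carries the long cytoplasmic tail that binds plectin. It had 1178, 630 and 293 normalized counts in controls C216, C241 and C250 and 2766, 827 and 726 in labelled knockouts C217, C242 and C251. The labelled knockout was the higher member of each pair, opposite to Itga6. Within pairs Itgb4 rose by 0.98 ± 0.21, or 1.97-fold with a 95% interval of 1.41 to 2.75 (limma with block, adjusted p = 0.00788), and by groups it did not pass (adjusted p = 0.229). The block call was lost without the pair C216 and C217 (adjusted p = 0.0733) and with library totals set equal (log2 change 0.64, adjusted p = 0.0655).

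Integrin α3, encoded by Itga3, had 537, 373 and 119 normalized counts in controls C216, C241 and C250 and 1677, 498 and 310 in labelled knockouts C217, C242 and C251. It is the laminin-binding partner of β1. Labelled knockout C217 stood far above all other libraries, while C242 and C251 lay within the range of the controls. Within pairs it rose by 1.15 ± 0.24 on the log2 scale, 3.12-, 1.34- and 2.61-fold in the 3 pairs (limma with block, adjusted p = 0.00817), and by groups it did not pass (adjusted p = 0.22). Without the pair C216 and C217 the adjusted p was 0.0749.

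Integrin β1, encoded by Itgb1, pairs with many α subunits and is made by nearly all cell types. It had 514, 400 and 203 normalized counts in controls C216, C241 and C250 and 1080, 493 and 313 in labelled knockouts C217, C242 and C251. The order within pairs was that of Itga3 with smaller steps. The rise within pairs was 0.66 ± 0.19 on the log2 scale, or 1.59-fold (limma with block, adjusted p = 0.0237). This was the least stable of the calls, lost without the pair C216 and C217 (adjusted p = 0.187), without C250 and C251 (0.0541) and with library totals set equal (log2 change 0.32, adjusted p = 0.271).

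Summed markers of dermal fibroblasts, melanocytes and Schwann cells were higher in the libraries labelled knockout, the direction in which the 3 integrin genes rose. The sums for leukocytes, red blood cells and hair follicle overlapped between the groups. Single markers of leukocytes and of hair follicle did differ by groups, with 1 higher and 2 lower in each list. Of leukocytes, Lyz2 rose (log2 change 1.34) and Cd3e and Csf1r fell (−3.06 and −1.13). Of hair follicle, Sox9 rose (2.77) and Tchh and Krt79 fell (−2.88 and −0.77). Of 14 dermal fibroblast markers 8 were measured, and 5 of these were higher by the comparison of groups. The rest did not pass by groups. Of these Col5a1 had a log2 change of 1.08, but Dcn and Thy1 went the other way (−0.75 and −0.26). Dcn, the most abundant of these markers in each control, was lower in every pair. Their summed level was 198 to 554 normalized counts in controls and 662 to 917 in the libraries labelled knockout, while Lum, Pdgfra, Pdgfrb, Dpt, Fbn1 and Twist2 were not among the genes of the table. Of 10 melanocyte markers 10 were higher, with sums of 541 to 806 and 3637 to 5665. Schwann and Merkel cell markers (3 of 8 measured) summed to 31.9 to 68.0 and 151 to 308, leukocyte markers (9 of 12) to 438 to 693 and 206 to 1381, red blood cell markers (3 of 5) to 13.6 to 112 and 0.935 to 695, and hair follicle markers (8 of 10) to 2623 to 3374 and 1335 to 4190. Of 7 endothelial markers only Pecam1 was measured, at 2.66 to 5.72 and 6.54 to 59.5, and none of 8 muscle markers was. The part of these cells in the rise of the integrins, or in the gene lists below, was not tested.

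Collagen XVII, encoded by Col17a1, spans the membrane and reaches from the hemidesmosome into the basement membrane. Its values were 3922, 2894 and 1048 normalized counts in controls C216, C241 and C250 and 2932, 820 and 758 in labelled knockouts C217, C242 and C251. All 3 pairs went down, by far the most in C241 and C242. Within pairs Col17a1 fell by 0.90 ± 0.27 on the log2 scale, to 0.748, 0.284 and 0.724 of the control (limma with block, adjusted p = 0.0315), and by groups it did not pass (adjusted p = 0.27). Without the pair C216 and C217 the call was lost (adjusted p = 0.057), and without C241 and C242 the fall was 0.44 (log2 change −0.44, adjusted p = 0.0321).

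Upstream sequence is shown for 3 genes that moved in opposite directions within pairs: Col17a1, which fell, and Itgb1 and Itga3, which rose. Each line gives the 250 bases before an annotated start, 5′ to 3′ on the strand of the gene, from RefSeq on build GRCm38.p6 (the authors' notes name mm39). The windows are chr19:47692043-47692292 on the minus strand for Col17a1, chr8:128685404-128685653 on the plus strand for Itgb1 and chr11:95076715-95076964 on the minus strand for Itga3, which has another annotated start. Capitals mark matches to the 6 motifs searched.
Col17a1: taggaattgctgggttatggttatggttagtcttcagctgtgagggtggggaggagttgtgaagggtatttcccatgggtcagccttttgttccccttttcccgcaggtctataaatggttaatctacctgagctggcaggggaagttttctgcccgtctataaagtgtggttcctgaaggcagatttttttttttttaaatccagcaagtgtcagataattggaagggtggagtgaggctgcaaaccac
Itgb1: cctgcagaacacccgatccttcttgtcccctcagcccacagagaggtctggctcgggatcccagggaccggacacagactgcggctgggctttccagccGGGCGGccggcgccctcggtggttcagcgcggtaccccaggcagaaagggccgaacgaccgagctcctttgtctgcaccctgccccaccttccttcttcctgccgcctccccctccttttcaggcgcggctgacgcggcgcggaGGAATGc
Itga3: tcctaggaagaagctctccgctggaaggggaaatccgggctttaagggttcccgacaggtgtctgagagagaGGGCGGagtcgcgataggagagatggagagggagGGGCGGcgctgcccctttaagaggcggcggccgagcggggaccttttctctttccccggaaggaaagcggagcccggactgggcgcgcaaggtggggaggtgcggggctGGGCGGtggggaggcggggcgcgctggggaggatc

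The motifs, searched on both strands, were AP-1 (TGANTCA), the GC box (GGGCGG), TEAD (CATTCC), the ATF4 amino acid response element (TGATGNAA), the p53 family half-site and the serum response element. The window of Col17a1 had 46.0% G and C and no match, against 68.0% in that of Itgb1 and 67.6% in the printed one of Itga3, where the median of all windows was 52.4%. The window of the other Itga3 start had 50.8% and a single GC box. Itgb1 had a GC box that began 151 bases before the start and a TEAD match at 7 bases, and Itga3 had GC boxes at 178, 144 and 35 bases. No matches overlapped. A GC box was found in 32.7% of all 32851 windows of this length and a TEAD match in 12.6%. AP-1, the ATF4 element, the p53 family half-site and the serum response element, held by 6.75%, 3.45%, 7.13% and 1.47% of all windows, were in none of the 8 windows that the table holds for 5 of the anchoring genes (Col17a1, Dst, Itga3, Itgb1 and Lamb3). A match here is a string of letters and not a measured binding site.

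Of the plakins, Dst encodes BP230 in keratinocytes and other, longer forms in nerve and muscle, and a count of the whole gene sums them all. It had 5724, 2994 and 1220 normalized counts in controls C216, C241 and C250 and 4857, 1352 and 1261 in labelled knockouts C217, C242 and C251. Only the pair C241 and C242 was far apart. The change was 0.735-fold, with a 95% interval of 0.269 to 2.01 by groups and of 0.507 to 1.07 within pairs (limma adjusted p = 0.611 and 0.15). With library totals set equal or quantile normalization the block fit called it lower (adjusted p = 0.0398 and 0.041), and without control C216 its sign turned by groups (log2 change 0.08).

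Plectin, encoded by Plec, links integrin β4 to keratins and also occurs in many other cells. It had 8845, 6214 and 7066 normalized counts in controls C216, C241 and C250 and 13969, 5486 and 5093 in labelled knockouts C217, C242 and C251. Labelled knockout C217 was the highest and the other 2 the lowest, on either side of the controls. The log2 change was 0.00 ± 0.37 (limma adjusted p = 0.997), with a 95% interval of 0.558- to 1.80-fold by groups and 0.697- to 1.44-fold within pairs. The sign is not set, since it was negative with library totals set equal (−0.34), with quantile normalization (−0.65) and without labelled knockout C217 (−0.46).

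**Figure D3:**
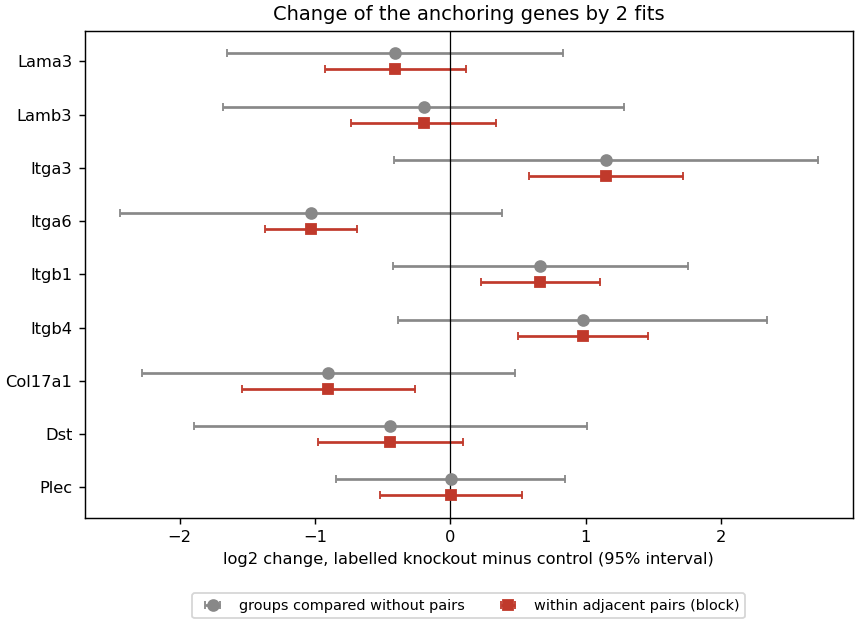
Log2 change from control to the libraries labelled knockout for each gene, with its 95% interval, for the comparison of groups (grey circles) and within adjacent pairs (red squares). The intervals within pairs exclude 0 for Itga3, Itga6, Itgb1, Itgb4 and Col17a1, and every interval of the group comparison includes it.

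Ratios of 2 genes in the same library do not depend on how libraries are scaled, and 8 were compared between the groups. The log2 ratio of Itga6 to Itgb4, the subunits of one receptor, was 0.81, 0.91 and 0.71 in controls C216, C241 and C250 and −1.35, −0.66 and −1.58 in labelled knockouts C217, C242 and C251. The controls were nearly alike and the sign was the opposite in each library labelled knockout. The ratio differed by −2.01, or 0.249-fold (exact two-sided permutation p = 0.10 for 3 against 3 libraries, the smallest these allow, and 0.20 adjusted over the 8 ratios), and by −2.16, −1.57 and −2.29 within the pairs. Of all genes, 19.5% had a ratio to Itgb4 that lay wholly lower in the libraries labelled knockout.

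The ratio of Col17a1 to Itgb4 was 1.73, 2.20 and 1.84 on the log2 scale in the controls and 0.08, −0.01 and 0.06 in labelled knockouts C217, C242 and C251, a difference of −1.88 (exact permutation p = 0.10, adjusted 0.20). Among the libraries labelled knockout this ratio had an SD of 0.05, although each of these genes varied about 4-fold between them (3.87-fold for Col17a1 and 3.81-fold for Itgb4). Itga6 to Itga3, the alternative laminin-binding α subunits, went from 1.94, 1.66 and 2.0 to −0.63, 0.07 and −0.36, a difference of −2.18 (exact permutation p = 0.10, adjusted 0.20), where 18.3% of all genes had a wholly lower ratio to Itga3. Lamb3 to Itgb4 went from −0.36, −0.08 and −0.49 to −1.41, −1.34 and −1.70, a difference of −1.17 (exact permutation p = 0.10, adjusted 0.20).

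The other 4 ratios overlapped between groups. Itga3 to Itgb1, the subunits of α3β1, differed by 0.48 (−0.27 ± 0.44 and 0.21 ± 0.37, mean and SD, n = 3 and 3, exact permutation p = 0.30), and Itgb4 to Itgb1 by 0.31 (exact permutation p = 0.20). Lama3 to Lamb3 differed by −0.21 (exact permutation p = 0.60) and Dst to Plec by −0.45 (exact permutation p = 0.60). These designs could not have passed a threshold of 0.05 in any case.

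**Figure D4:**
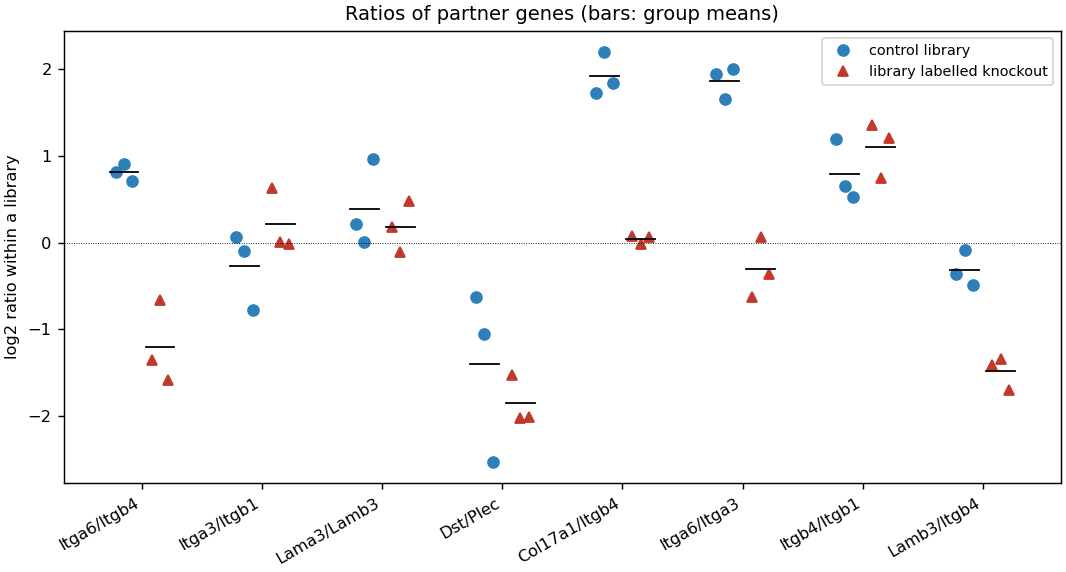
Log2 ratio of 2 anchoring genes within each library, for controls (circles) and libraries labelled knockout (triangles), with bars at the group means. Itga6/Itgb4, Col17a1/Itgb4, Itga6/Itga3 and Lamb3/Itgb4 do not overlap between the groups, with the libraries labelled knockout lower.

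Set against Krt5, the integrins that rose stood higher. The log2 ratio of Itgb4 to Krt5 was −4.14, −4.44 and −4.75 in controls C216, C241 and C250 and −2.48, −2.85 and −3.15 in labelled knockouts C217, C242 and C251, a difference of 1.62. That of Itga6 differed by −0.39 and that of Col17a1 by −0.26, with overlapping groups. Against Trp63 the differences were 1.74 for Itga3, 1.25 for Itgb1 and 1.57 for Itgb4. The groups overlapped there for Itgb4 (−1.24 in labelled knockout C242, −1.15 in control C216). Krt5 did not pass by groups (log2 change −0.64 ± 0.44, limma adjusted p = 0.282) and fell within pairs (limma with block, adjusted p = 0.0374). Against the mean of Krt5 and Krt14 all 9 genes were lower, by −0.14 for Itga3 to −2.32 for Itga6, but Krt14 itself rose by 3.21 ± 0.61 (limma adjusted p = 0.00547) and shares sequence with other keratins, so this reference is not a steady one.

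Per kilobase of merged annotated exons, the order of levels in controls was Col17a1 (436 ± 242.2 normalized counts per kb, SD, n = 3) and Plec (407 ± 74.1), then Itga6 (138 ± 88.2), Itgb4 (99.8 ± 63.7), Itgb1 (91.2 ± 38.6), Lamb3 (86.7 ± 53.6), Dst (80.5 ± 55.1), Lama3 (64.1 ± 31.3) and Itga3 (60.0 ± 36.9). Neighbours in this order lay within each other's SD except Plec and Itga6. In the libraries labelled knockout the means per kb were 452 for Plec, 250 for Col17a1, 205 for Itgb4, 154 for Itgb1, 145 for Itga3, 80.2 for Lamb3, 68.2 for Itga6, 60.5 for Dst and 55.6 for Lama3, with all neighbours within their spread. Itga6 went from the top of the integrins to the bottom. Per kb of the longest transcript it was 288 in controls and 143 in the libraries labelled knockout, against 113 and 232 for Itgb4, and it was again the first of the integrins in controls and the last in the other group.

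Of 35 other laminin and basement membrane genes 29 were tested, of which 5 were higher and 7 lower by groups, and 7 and 9 within pairs (median log2 change −0.01, as against −0.02 for all genes). Counts of this and the following lists stand against 33.6% of all genes called by groups, 17.7% higher and 15.9% lower. Within pairs the share was 44.9%, with 22.9% higher and 22.0% lower. No list was tested as a set. Fras1, whose extracellular protein anchors embryonic epidermis, went from 2196, 1282 and 1156 normalized counts in controls C216, C241 and C250 to 175, 44.2 and 123 in labelled knockouts C217, C242 and C251 (log2 change −3.90 ± 0.48, limma adjusted p = 8.27e-04). The collagen IV chains Col4a5 and Col4a6 fell by 2.59 ± 0.50 and 2.55 ± 0.41, the laminin β2 chain Lamb2 by 1.12 ± 0.20 and dystroglycan (Dag1) by 1.10 ± 0.18 (adjusted p = 0.00594, 0.00264, 0.00443 and 0.00258). Lama4, a laminin chain of vessels and other mesenchymal tissue, rose by 2.58 ± 0.39 from low levels of 6.54 to 10.6 normalized counts (adjusted p = 0.00226). Col7a1, which forms the anchoring fibrils under the hemidesmosome and was named after its values were seen, fell only within pairs, by 1.15 ± 0.21 (limma with block, adjusted p = 0.00402, and 0.104 by groups).

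Other integrin subunits were tested for 14 of 21 genes, with 3 higher and 1 lower by groups, and 5 and 2 within pairs (median log2 change 0.67). Of all genes 33.6% were called by groups and 44.9% within pairs. Itgb6, which pairs with αv and is known from wounded epithelium, went from 53.6, 102 and 45.0 normalized counts in the controls to 629, 602 and 218 in labelled knockouts C217, C242 and C251 (log2 change 2.78 ± 0.45, limma adjusted p = 0.00298). Its partner Itgav rose by 1.3 ± 0.21 (adjusted p = 0.0027) and Itga2b, an integrin of platelets, by 1.81 ± 0.44 from low levels (adjusted p = 0.0147). Itgb5, another partner of αv, fell by 2.25 ± 0.41 (log2 change −2.25, adjusted p = 0.00486). Itga5 and Itga2, receptors for fibronectin and collagen named after their values were seen, rose only within pairs (limma with block, adjusted p = 0.00255 and 0.0074). Itgam, a leukocyte integrin and the most abundant subunit that did not pass, was at 573 normalized counts in labelled knockout C242 and at 52.3 to 99.7 elsewhere, and the summed leukocyte markers were also highest in that library (1381).

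Partners of the hemidesmosome and other plakins numbered 8 tested of 9, with 2 higher and 1 lower by groups and 2 and 3 within pairs (median −0.16). Macf1, a plakin that joins actin and microtubules, rose by 1.81 ± 0.28 (limma adjusted p = 0.00225), and with Krt14 it made up the higher genes. Erbin, which binds integrin β4 and BP230, fell by 0.57 ± 0.17 (log2 change −0.57, adjusted p = 0.0306), a call that was lost without any 1 library other than labelled knockout C217 (adjusted p = 0.0519 to 0.125). The tetraspanin Cd151, a partner of the laminin-binding integrins, had 118, 81.5 and 63.8 normalized counts in the controls and 206, 100 and 90.9 in the libraries labelled knockout, higher in each pair but past the threshold by neither fit (adjusted p = 0.279 and 0.0707). Desmoplakin (Dsp), the plakin of desmosomes, was nearly level at 64368 to 71622 and 59558 to 68019 (adjusted p = 0.826).

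**Figure D5:**
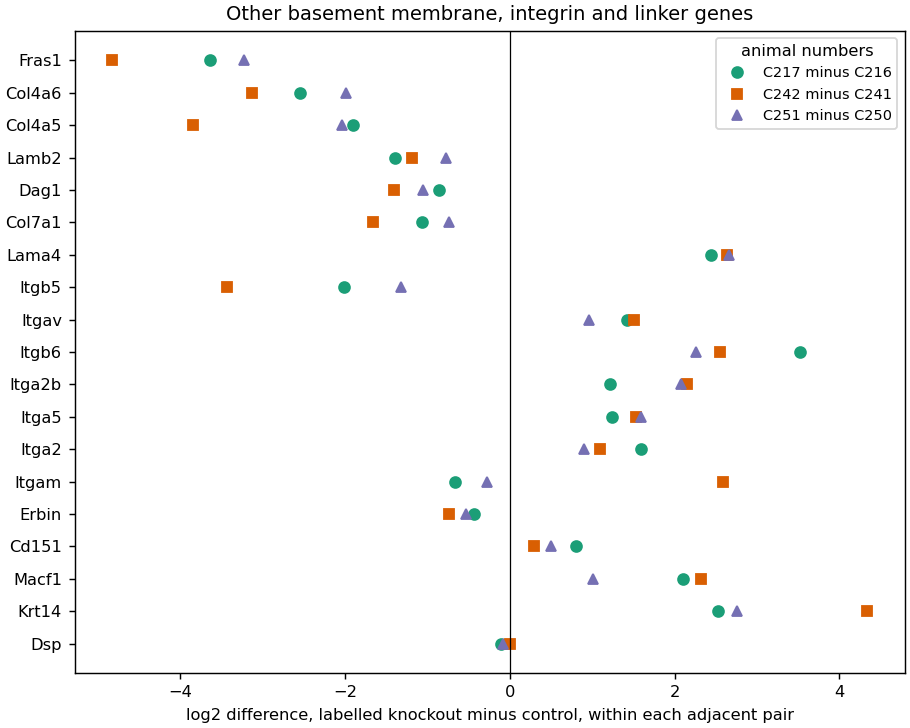
Log2 difference within each adjacent pair for other basement membrane genes, integrin subunits, and hemidesmosome partners. Fras1, Col4a6, Col4a5, Lamb2, Dag1, Col7a1, Itgb5 and Erbin lie left of 0 in all 3 pairs, and Lama4, Itgav, Itgb6, Itga2b, Itga5, Itga2, Cd151, Macf1 and Krt14 right of it.

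Among 29 focal adhesion genes tested of 31, 6 were higher and 3 lower by groups (9 and 4 within pairs, median 0.39). The shares of all genes called were 33.6% by groups and 44.9% within pairs. Flna, a filamin that cross-links actin, rose by 1.78 ± 0.25, the tetraspanin Cd81 by 2.85 ± 0.22 and the integrin activator Fermt2 by 2.74 ± 0.42 (limma adjusted p = 0.00149, 1.27e-04 and 0.00228). Cd47 fell by 1.34 ± 0.25 and the adaptor Bcar1 by 0.94 ± 0.23 (adjusted p = 0.00548 and 0.0159), and the Bcar1 call was lost without control C241 or C250 (0.0623 and 0.0671). Actn4, an actinin, was the most abundant that did not pass (log2 change 0.31 ± 0.19, adjusted p = 0.222).

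Proteases and inhibitors that act on this matrix were tested for 15 of 21 genes, with 5 higher and 2 lower (6 and 3 within pairs, median 0.51). Bmp1, which processes laminin-332 and collagen VII, fell by 1.61 ± 0.43, to 339, 90.2 and 141 normalized counts in labelled knockouts C217, C242 and C251 from 537, 553 and 419 in controls (limma adjusted p = 0.0212). The Bmp1 call was lost without control C216 or C241 (adjusted p = 0.066 and 0.0692). Adam9, a sheddase that can act on collagen XVII, rose by 1.44 ± 0.33 and Timp3, a metalloprotease inhibitor, by 3.01 ± 0.39 (adjusted p = 0.0125 and 0.00111). Of the plasminogen system, Plat and Plaur rose by 3.40 ± 0.53 and 3.47 ± 1.03 from at most 15.9 normalized counts in a control (adjusted p = 0.00233 and 0.0321), and Plau, named after its values were seen, fell by 1.16 ± 0.37 (adjusted p = 0.04). The call of Plaur was lost without any 1 library other than labelled knockout C251 (adjusted p = 0.0605 to 0.101), and that of Plau without control C216, control C250 or labelled knockout C242 (0.121, 0.128 and 0.0882). Adam10 did not pass (adjusted p = 0.328).

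Matrix genes and receptors of wounded epidermis were higher for 5 of 13 tested and lower for 2 by groups, and 10 and 3 within pairs (median 1.20). Besides Itgav and Itgb6, the higher ones by groups were Hbegf, an epidermal growth factor receptor ligand, the hyaluronan receptor Cd44 and Thbs1 (thrombospondin-1, named after its values were seen), by 1.65 ± 0.37, 1.08 ± 0.26 and 1.79 ± 0.50 (limma adjusted p = 0.0112, 0.0148 and 0.0264). The lower ones were periostin (Postn), with a log2 change of −4.16 ± 0.48 (adjusted p = 6.41e-04), and vitronectin (Vtn), from 16.6, 46.0 and 18.8 to 0, 0 and 2.22 normalized counts (adjusted p = 0.00998). With 1 control left out calls were lost for Cd44 (without C241 or C250, adjusted p = 0.0564 and 0.0525), Thbs1 (without any 1 of them, 0.0648 to 0.0784) and Vtn (without C241, 0.0818). Of 10 basal and spinous layer reference genes, 2 were higher and 1 lower (2 and 4 within pairs, median −0.35). Krt15, a keratin of basal cells, fell by 6.84 ± 0.76 and Dsc1, a spinous layer desmocollin, rose by 1.18 ± 0.22 (adjusted p = 6.00e-04 and 0.00535), while Krt1 was among those that did not pass (adjusted p = 0.569).

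Some genes followed the anchoring genes closely over the 6 libraries, by the root mean square distance between log2 profiles centred on their means. Col17a1 was followed most closely by Cav1 (0.092), the caveolin of membrane caveolae, and Enox1 (0.145). Lama3 had Agrn (0.116), the basement membrane proteoglycan agrin, and 9130019O22Rik (0.158), and Itgb4 (0.246) was the anchoring gene nearest to Itga3. Kirrel (0.135) and Arhgap21 (0.136) were nearest to Itgb1, Ncam1 (0.181) and Airn (0.204) to Itgb4, Col12a1 (0.285) and Slc2a5 (0.292) to Itga6, Gli3 (0.190) and Dst (0.202) to Lamb3, Pitpnm3 (0.143) and Gli3 (0.176) to Dst, and Nek8 (0.129) and Prkcz2 (0.144) to Plec. Airn is antisense to Igf2r, and without strand reads of the 2 cannot be told apart. The nearest anchoring gene to Itga6 was Col17a1 (0.327) and not its partner Itgb4, and to Plec it was Lama3 at a rank of 777 among all genes.

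Gene length moved weakly with the comparison. The median log2 change was 0.19 in the fifth of genes with the shortest merged exons and −0.13 in the fifth with the longest, and the anchoring genes, from 4081 bases for Itgb1 to 41155 for Dst, lie where the medians were −0.05 to −0.13. The part of length in the changes of the 9 genes was not tested.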

How the data were processed

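The data are normalized counts per gene for 12894 Ensembl gene IDs in 6 libraries, 1 row each, as the authors deposited them, a signal that is never negative. TopHat2 2.1.0, Partek 9.0.20.0202 and build mm39 are named per the submitters' processing notes, with no role given, and how reads were counted, whether by strand, and how they were normalized is not stated in any source used here. The low values (up to 20 reads) were whole multiples, within 0.02, of a step of 0.755 to 1.70 normalized counts for 81.8 to 83.0% of them. This is too few to recover reads, and a count test was not run. Reads estimated from this step give the depth.

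A symbol was found for 12771 of the Ensembl IDs and for 123 not. Genes above 1 in at least 3 libraries were kept (12872) and tested as log2(value + 1) with limma 3.58.1 in R 4.3.3 (trend; Benjamini-Hochberg adjustment over all tested genes, threshold 0.05). Fold changes are on that scale, with moderated SE. The fit was tested on simulated data. Ratios were tested by an exact two-sided permutation over libraries.

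As a check of pairing, libraries with adjacent animal numbers had correlations of 0.37, 0.23 and 0.36 between their deviations from group means. The other control and knockout combinations had −0.28 to −0.07, and the block fit rests on that pairing. Over the 9 genes alone the adjacent libraries had 0.68, 0.24 and 0.68, against −0.69 to 0.50 for the others. There C241 went more with C217 (0.50) than with C242 (0.24). P-values of the group fit measure the change against the spread between these animals. Those of the block fit measure it against the spread of the differences within the 3 pairs. Those of the ratios count permutations of the libraries. Exon lengths come from GENCODE M21 (GRCm38), upstream sequences from RefSeq (GRCm38.p6), which held windows for 5 of the 9 genes. No protein sequence was used.

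The genes, lists, tests and naming rule were chosen with earlier results of these data known. The rule took the 9 genes, Hnrnpu, Cd151, up to 6 called genes per list by adjusted p with the most abundant uncalled one, and the 2 nearest profiles per gene; some genes it took are not reported here. Alternatives were pseudocounts of 0.5 and 5, filters (none, or above 10), equal totals, quantile normalization, no trend, robust fit, array weights, the block, each library left out, and subsets by control genotype or Xist.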

Additional observations from a re-analysis of the deposited data

How the results depend on the processing

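Ratio differences of Itga6/Itgb4, Col17a1/Itgb4, Itga6/Itga3 and Lamb3/Itgb4 kept their sign in all 12 alternatives run for each. Their groups do not overlap, so equal totals, the block or leaving out 1 library could not have turned it. The changes of Itga3, Itgb1 and Itgb4 kept their sign in all 24. Many of these could not have turned it. The pseudocounts, filters, no trend, robust fit and block left the change nearly as it was (0.97 to 0.98 for Itgb4). Leaving out a pair could not turn it either, since every pair went 1 way. The fit without control C216 and that to the controls not labelled wild type are the same. Against the wild type control alone, the changes of Itga3, Itgb1 and Itgb4 were only 0.25, 0.10 and 0.01. Itga6 and Col17a1 were at −2.00 and −1.68 in that fit. Lama3/Lamb3 ranged from −0.40 to 0.07 with 1 library left out. The replicate block of adjacent animal numbers called 3 of the 9 genes higher and 2 lower (log2 change 1.15 for Itga3, 0.66 for Itgb1, 0.98 for Itgb4, −1.03 for Itga6, −0.90 for Col17a1). The following block fits were chosen after seeing the data. Without the pair C216 and C217 it called 0 higher and 1 lower (Itga6 −1.08; Plec −0.33). Without C241 and C242 it called 3 and 2 (Itga3 1.51, Itgb1 0.85, Itgb4 1.27, Itga6 −0.96, Col17a1 −0.44; Lamb3 0.14). Without C250 and C251 it called 2 and 2 (Itga3 1.03, Itgb4 0.81, Itga6 −1.05, Col17a1 −1.12). With equal totals it called 1 and 4 (Itga3 0.81, Itga6 −1.37, Col17a1 −1.24, Dst −0.79, Lama3 −0.75; Plec −0.34), and 4204 genes lower in all. With quantile normalization it called 3 and 3 (Itga3 1.06, Itgb1 0.57, Itgb4 0.80, Itga6 −1.24, Col17a1 −1.24, Dst −0.84; Plec −0.65).

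Labelled knockout C217 is high in all 9 genes and is the only labelled knockout with Xist as low as in the controls. With it alone against the controls the signs turned for Itga6 (0.04), Col17a1 (0.36), Dst (0.82), Lama3 (0.89) and Lamb3 (1.10). Against its adjacent control C216 only, C217 was lower for Itga6 (−0.93), Col17a1 (−0.42) and Dst (−0.24). There it was higher for Lama3 (0.15) and Lamb3 (0.19). Without the wild type control the signs turned for Dst (0.08) and Lamb3 (0.26), and with that control alone for Plec (−0.28). With 1 library left out the log2 change ranged from −1.08 to 0.08 for Dst, −0.85 to 0.26 for Lamb3, 0.45 to 1.67 for Itga3, 0.18 to 1.07 for Itgb1, 0.37 to 1.46 for Itgb4, −1.60 to −0.49 for Itga6, −1.53 to −0.51 for Col17a1, −1.05 to −0.04 for Lama3 and −0.46 to 0.26 for Plec, which was −0.34 with equal totals and −0.65 with quantile normalization. Over all genes, 1512 to 2342 were higher and 1121 to 2167 lower with 1 library left out. Equal totals gave 1440 higher, and moved the median gene from −0.02 to −0.36 and the share of lower calls from 47.3 to 68.0%. There were 1172 lower without the wild type control, 248 higher and 53 lower with it alone, and 1265 higher and 1220 lower with labelled knockout C217 alone. Fewer libraries enter those fits. Otherwise the cause was not tested. Each of the 9 genes exceeded 100 normalized counts in every library, and 3 libraries a group limit the precision. Protein features, planned for the 9 genes, were not run.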
